A study of Mus musculus with 20 samples.

Results

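The enzymes that build cholesterol and fatty acids from acetyl-CoA, with the factors that switch them on, were followed in SIMS cells, a mouse salivary gland cell line. The 29 genes were a fixed list of symbols, matched to gene identifiers through GENCODE M21, out of 55471 genes in the count table. They fell into a sterol branch of 21 genes and a fatty acid branch of 8 genes. All 29 passed the filter on low counts and were tested among 15297 genes, Insig1 only through the Zcchc8 KO libraries.

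The study grew unedited wild-type cells, Btbd7 KO cells and 3 Zcchc8 KO clones, the knockouts made with CRISPR/Cas9, in DMEM with 10% fetal bovine serum. Each of the 5 groups had 4 libraries of total RNA. Btbd7 KO is the study's negative control, so it carries the editing but not the loss of Zcchc8, and its clone number is not given in the labels. Each Zcchc8 KO line is 1 clone, no labels describe the edited alleles, and none says that replicates came from separate cultures, so p-values measure the spread between these libraries. ZCCHC8 holds together the NEXT complex (nuclear exosome targeting), an adaptor that hands short nuclear RNAs to the RNA exosome for decay. Among its substrates are promoter upstream transcripts (PROMPTs), RNAs made just upstream of gene starts. The deposited PROMPT table gave a second readout, upstream of each member.

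Library totals ran from 6833258 to 17771804 counts, with the 4 clone 1 libraries at 6833258 to 7683444. Counts were found in 14245 genes in wild-type replicate 1, where the rest of its group had 17442 to 18791, and it is not in the PROMPT table, where wild type has 3 libraries. Zcchc8 itself was at 61.6 to 68.1 CPM (counts scaled to the library total after TMM adjustment) in wild type, 55.1 to 65.6 in clone 1, 21.9 to 24.9 in clone 2 and 50.4 to 60.6 in clone 3. Its RNA was lower in clone 2 (log2 fold change -1.48) and clone 3 (-0.26) by edgeR's test and was not called in clone 1 (adjusted p = 0.291), and counts over the whole gene do not check an edit that leaves the RNA in place. By edgeR's test 39.3%, 36.0% and 36.7% of all tested PROMPT regions were called higher than wild type in clones 1, 2 and 3. Called lower were 3.79%, 3.09% and 2.41%. The filter lets regions pass through the Zcchc8 KO libraries alone, and what these shares say about the edit was not tested. Btbd7 was at 95.8 to 103 CPM in Btbd7 KO and 192 to 209 in wild type. Of 13 epithelial markers, 12 were above 1 CPM on average in every group, and their summed level was 4673 to 6555 CPM in wild type, 5798 to 5911 in Btbd7 KO and 4111 to 5227 in the Zcchc8 KO libraries, with 5 of the 12 tested called lower in the mean of the clones. Markers of adipocytes and hepatocytes, other cells rich in these enzymes, summed to at most 0.255 CPM in any library. Of the 7 acinar markers only Aqp5 was well expressed, at 165 to 187 CPM in wild type, 108 to 114 in Btbd7 KO, 134 to 163 in clone 1, 125 to 154 in clone 2 and 112 to 121 in clone 3, so no knockout library reached the lowest wild-type library. Smr3a and Bpifa2 had no counts, and Amy1, Prol1 and Dcpp1 averaged at most 0.439 CPM in any group. Bhlha15 averaged 1.61 CPM in wild type, 0.879 in Btbd7 KO and 1.37, 1.18 and 1.75 in clones 1, 2 and 3. The 7 fibroblast and mesenchyme markers summed to 11.4 to 18.5 CPM in wild type, 22.5 to 35.2 in Btbd7 KO, 10.2 to 14.2 in clone 1, 24.4 to 28.2 in clone 2 and 22.2 to 26.3 in clone 3. The 5 immune markers summed to 4.52 to 6.19 CPM in wild type, 5.44 to 6.59 in Btbd7 KO, 8.07 to 13.4 in clone 1, 9.26 to 11.1 in clone 2 and 4.09 to 6.76 in clone 3. Nearly all of this was Cd68, since Adgre1 had no counts and Ptprc, Lyz2 and Cd3e averaged at most 0.537 CPM in any group. The part of these marker levels in the results on the members was not tested. In bulk RNA, fewer cells of a type and less RNA per cell cannot be told apart.

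Cholesterol is built in the endoplasmic reticulum and cytosol by the mevalonate pathway. Acetyl-CoA is condensed and reduced to mevalonate, mevalonate is turned into isoprenoid units, these are joined to squalene, and squalene is cyclised to lanosterol and trimmed to cholesterol. Fatty acid synthesis takes the same acetyl-CoA, made in the cytosol from citrate, to malonyl-CoA and palmitate, which is then elongated and desaturated. The membrane-bound factors SREBP-2, from Srebf2, and SREBP-1, from Srebf1, are cut free when sterols are low and activate the genes of both branches at sterol regulatory elements, usually beside NF-Y sites (CCAAT) and GC boxes. The proteins encoded by Insig1 and its relative Insig2 hold the SREBP escort in the endoplasmic reticulum when sterols are plentiful.

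Promoter stretches of 5 members whose upstream bases lie outside every annotated gene are shown, because PROMPTs arise from the DNA just upstream of the start. Hmgcs1, Sc5d, Fasn and Acly had more reads upstream in the Zcchc8 KO clones, and Srebf1, shown at the most upstream of its RefSeq starts, was not called. Each is the 250 bases before the start in RefSeq on GRCm38.p6, 5′ to 3′ on the gene's strand, with matches in capitals. The capitals mark TCACNCCAC, the form of the sterol regulatory element searched. They also mark CCAAT, which reads ATTGG where it lies on the other strand.
Hmgcs1 (chr13:119690101-119690350, plus strand): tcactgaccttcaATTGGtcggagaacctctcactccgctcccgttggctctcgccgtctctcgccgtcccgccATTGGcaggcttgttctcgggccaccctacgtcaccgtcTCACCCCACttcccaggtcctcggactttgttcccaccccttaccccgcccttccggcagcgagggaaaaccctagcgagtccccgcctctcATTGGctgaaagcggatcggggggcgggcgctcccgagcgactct
Sc5d (chr9:42264301-42264550, minus strand): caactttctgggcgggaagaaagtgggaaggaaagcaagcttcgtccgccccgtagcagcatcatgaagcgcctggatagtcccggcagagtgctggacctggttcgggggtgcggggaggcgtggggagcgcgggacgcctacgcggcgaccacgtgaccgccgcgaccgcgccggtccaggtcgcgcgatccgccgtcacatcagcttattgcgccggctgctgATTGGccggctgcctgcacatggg
Fasn (chr11:120824548-120824797, minus strand): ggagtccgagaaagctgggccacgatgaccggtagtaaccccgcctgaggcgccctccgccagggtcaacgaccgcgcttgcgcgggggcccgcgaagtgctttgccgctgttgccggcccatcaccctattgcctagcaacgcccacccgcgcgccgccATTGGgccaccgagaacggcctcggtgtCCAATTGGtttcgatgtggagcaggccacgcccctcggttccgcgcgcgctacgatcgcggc
Acly (chr11:100528001-100528250, minus strand): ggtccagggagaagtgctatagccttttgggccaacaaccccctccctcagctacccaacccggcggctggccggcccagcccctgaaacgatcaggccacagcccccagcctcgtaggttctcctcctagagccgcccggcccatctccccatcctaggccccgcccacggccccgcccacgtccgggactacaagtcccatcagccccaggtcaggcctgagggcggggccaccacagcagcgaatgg
Srebf1 (chr11:60222582-60222831, minus strand): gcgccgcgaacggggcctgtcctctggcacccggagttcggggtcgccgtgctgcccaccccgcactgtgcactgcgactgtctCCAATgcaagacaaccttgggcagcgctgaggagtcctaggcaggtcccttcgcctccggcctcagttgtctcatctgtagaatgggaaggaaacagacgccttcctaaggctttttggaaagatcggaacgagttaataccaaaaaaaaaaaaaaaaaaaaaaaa

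RefSeq promoters, 250 bases before and 50 after the start, were found for 23 of the 29 members, with 28 promoters in all. Both strands were searched for 4 motifs, and matches can overlap: CCAATTGG in Fasn holds a CCAAT match on each strand, and the sterol element and the E-box form TCACGTGA share the letters TCAC. CCAAT was in 20 of the 28 (71.4%), against 37.4% of 32851 promoters of all genes. It was in 16 of 20 sterol promoters (80%) and 4 of 8 fatty acid promoters (50%), or by gene 16 of 17 and 3 of 6. The Acaca promoter (chr11:84195188-84195487) had no CCAAT match and lies inside the annotated gene, which starts at 84129672. The GC box GGGCGG was also in 20 of the 28 (71.4%), against 35.7% of all promoters. TCACNCCAC was in 1 member's promoter, that of Hmgcs1 (3.57% of the 28, against 1.24% of all). TCACGTGA was in none, against 0.974% of all. In the shown stretches, Hmgcs1 and Fasn had 3 CCAAT matches each, while Acly had none in the 250 bases and 1 in the 50 bases after the start. The promoter of Mvk, which was not called upstream, held 5 CCAAT matches. These are matches of letters, not sites of binding.

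In the mean of the 3 Zcchc8 KO clones, 17 of the 29 members differed from wild type by edgeR's quasi-likelihood test at an adjusted p under 0.05. In the sterol branch 12 genes fell, namely Hmgcs1, Sqle, Idi1, Dhcr7, Msmo1, Nsdhl, Sc5d, Mvk, Pmvk, Acat2, Srebf2 and Hsd17b7, and 2 rose, Insig1 and Ebp, of which Insig1 passed the filter only through the Zcchc8 KO libraries and had to differ. In the fatty acid branch Elovl6, Scd2 and Acaca fell and none of the 8 rose. Among all tested genes 19.9% were called lower and 16.2% higher (36.1% either way), and among the 11481 protein-coding genes 25.4% lower and 11.8% higher (37.1% either way). The median log2 fold change was -0.22 over the sterol branch and -0.053 over the fatty acid branch, against -0.0057 over all genes. The falls of named members were modest, from -0.13 for Acaca to -0.69 for Idi1 on the log2 scale. The 4 wild-type and 12 Zcchc8 KO libraries did not overlap for 5 members, Sqle, Nsdhl, Hsd17b7, Scd2 and Elovl6, all lower, where 4.12% of all genes were lower without overlap and 6.01% higher.

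The count of 17 depended on what was taken as the unit of replication and on scaling. With library totals in place of TMM factors it was 11 (7 sterol genes lower and 2 higher, 2 fatty acid genes lower), and the split of all genes turned from 2474 higher and 3046 lower to 3229 higher and 2005 lower. DESeq2 split all genes into 3096 higher and 2645 lower and called 15 members. It was also 11 without wild-type replicate 3. With counts summed per cell line, 3 Zcchc8 KO clones against 2 control lines, 1 member was called (Insig1, higher), where 927 genes were called higher and 165 lower, so the falls below are differences between libraries of these lines.

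**Figure D1:**
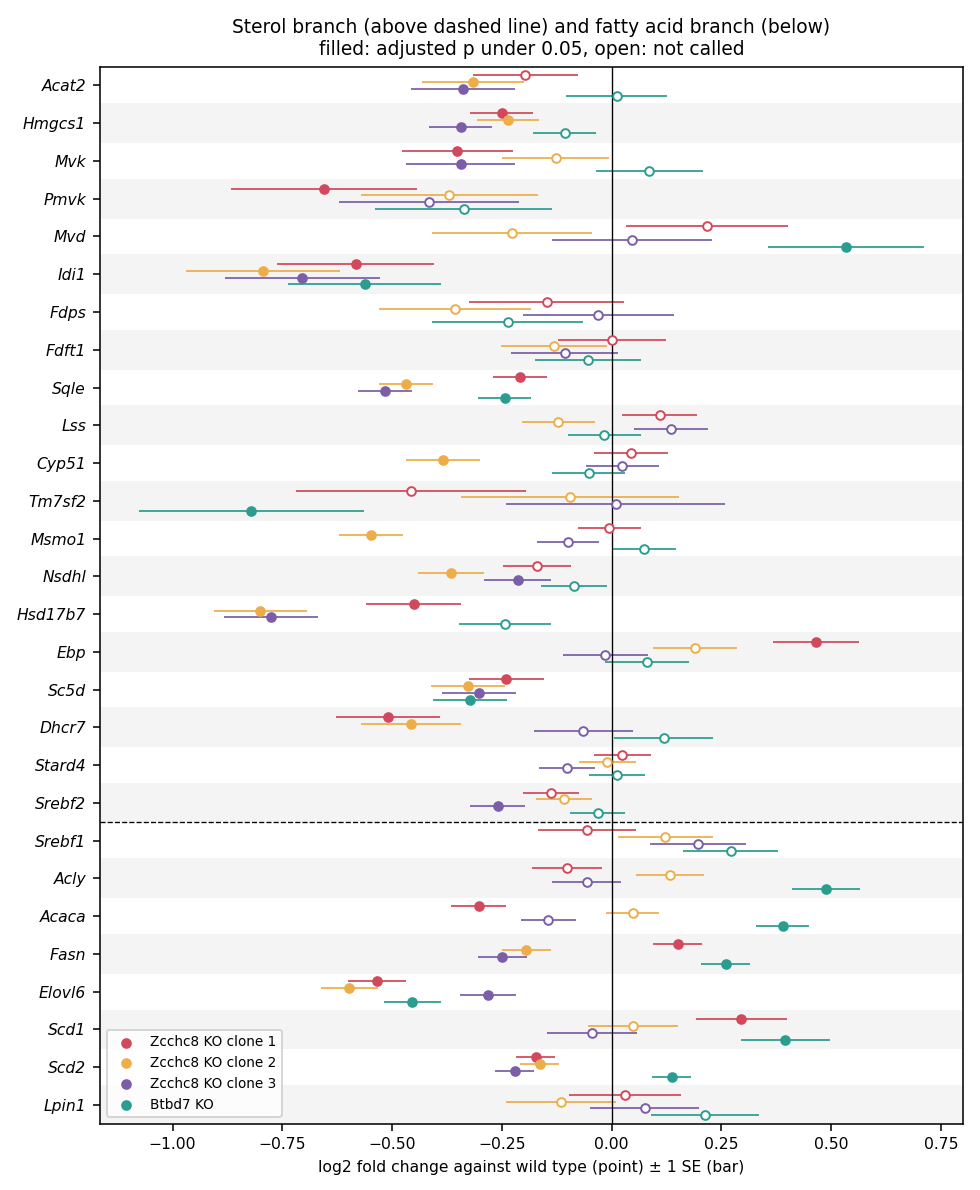
Log2 fold change (x axis, edgeR, ± 1 SE) of 28 members against wild type in each Zcchc8 KO clone and in Btbd7 KO, with filled points for an adjusted p under 0.05. Insig1 is left out because of its scale (3.37 in the mean of the clones). Hmgcs1, Idi1, Sqle, Hsd17b7, Sc5d, Elovl6 and Scd2 lie to the left of 0 with filled points in all 3 clones, and Acly, Acaca, Fasn, Scd1 and Scd2 lie to the right of 0 with filled points in Btbd7 KO.

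The steps to the isoprenoid units hold Acat2, Hmgcs1, Mvk, Pmvk, Mvd, Idi1 and Fdps. Acat2 makes acetoacetyl-CoA and Hmgcs1 adds a further acetyl group to it to make HMG-CoA. Hmgcs1 (ENSMUSG00000093930.2, chromosome 13, 119690379 to 119708260 on the plus strand, GENCODE M21, GRCm38) was the second of the sterol branch in level per length. Hmgcs1 was at 146, 179, 174 and 192 CPM in wild type, 157, 160, 168 and 155 in Btbd7 KO, 149, 155, 145 and 132 in clone 1, 147, 144, 148 and 147 in clone 2 and 136, 124, 134 and 149 in clone 3. Clone 1, clone 2 and clone 3 lay at or below 155, while wild-type replicate 1 stood low among the wild-type libraries and overlapped them. The mean of the clones differed from wild type by -0.28 ± 0.057 on the log2 scale (SE, edgeR adjusted p = 0.000458), and the values were -0.25, -0.24 and -0.34 in clones 1, 2 and 3, each called. Without wild-type replicate 4 the calls in clones 1 and 2 were lost (edgeR adjusted p up to 0.0746 and 0.117), and without clone 1 replicate 4 that in clone 1 was. In Btbd7 KO it was -0.11 (edgeR adjusted p = 0.341), and the clones were below Btbd7 KO by -0.17 (edgeR adjusted p = 0.021), with no overlap between their libraries, a call lost without Btbd7 KO replicate 2 or 3 (edgeR adjusted p up to 0.103).

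Idi1 (ENSMUSG00000058258.14, chromosome 13, 8885501 to 8892451, plus strand) interconverts the isoprenoid units that are joined into squalene. Idi1 was at 28.9, 24.7, 23.7 and 21.2 CPM in wild type, 16.0, 14.2, 16.6 and 20.02 in Btbd7 KO, 22.3, 17.5, 16.5 and 9.55 in clone 1, 13.6, 17.0, 11.8 and 14.4 in clone 2 and 13.7, 17.95, 16.1 and 13.2 in clone 3. All wild-type libraries except the lowest were above every other library, and clone 1 spread most, from 9.55 to 22.3. Idi1 fell by 0.69 on the log2 scale in the clones, or 0.618 of the wild-type level (SE 0.14, edgeR adjusted p = 0.000292). It was lower in Btbd7 KO too, at -0.56 (SE 0.17, edgeR adjusted p = 0.0273), without overlap with wild type, and this call was lost without Btbd7 KO replicate 1 (edgeR adjusted p = 0.0768), 2 (0.105) or 3 (0.0618). The difference between the clones and Btbd7 KO, -0.13 (95% interval -0.42 to 0.15), did not pass the test.

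The kinases and the decarboxylase of the pathway changed less evenly. Mvk, mevalonate kinase, fell in the mean (-0.27, edgeR adjusted p = 0.0322), as did Pmvk, phosphomevalonate kinase (-0.48, edgeR adjusted p = 0.0218), and Acat2 (-0.28, edgeR adjusted p = 0.0197). These calls turned on single libraries. The Mvk call was lost in 17 of 29 other fits, 11 of them with 1 library left out (edgeR adjusted p up to 0.135). The Pmvk call was lost in 4 of 29, among them those without wild-type replicate 2 or 3 (edgeR adjusted p up to 0.172), and the Acat2 call in 5 of 29, among them those without wild-type replicate 1, 2 or 3 (edgeR adjusted p up to 0.0719). Acat2 has a close relative next to it, Acat3, at under 0.1 CPM in every group, and how reads shared between them were counted is not given in the sources used here. Mvd, which removes the carboxyl group, was at 0.012 in the mean and was not called there. In Btbd7 KO, Mvd was the 1 sterol gene that rose (0.53, SE 0.18, edgeR adjusted p = 0.0408), with 16.8 to 20.8 CPM against 7.67 to 15.7 in wild type. This call was lost in 8 of 28 other fits, 6 of them with 1 library left out, namely any of the 4 Btbd7 KO replicates or wild-type replicate 1 or 4 (edgeR adjusted p up to 0.135). Fdps, which joins the units to farnesyl diphosphate, was called in no comparison, with 7.62 to 15.1 CPM over all libraries.

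From squalene to cholesterol, Sqle and Hsd17b7 were the clearest changes. Sqle (ENSMUSG00000022351.14, chromosome 15, 59315077 to 59331192, plus strand) encodes squalene epoxidase, a rate-limiting step of the late pathway. Sqle was at 184, 174, 185 and 181 CPM in wild type, 155, 147, 153 and 156 in Btbd7 KO, 159, 172, 151 and 144 in clone 1, 134, 128, 127 and 135 in clone 2 and 117, 119, 131 and 139 in clone 3. Every knockout library was below every wild-type library, with clones 2 and 3 lowest. Sqle fell by 0.40 on the log2 scale in the clones (SE 0.049, edgeR adjusted p = 5.64e-07) and by 0.24 in Btbd7 KO (SE 0.061, edgeR adjusted p = 0.00622). The further difference between the clones and Btbd7 KO, -0.15, also passed (edgeR adjusted p = 0.015).

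Hsd17b7 (ENSMUSG00000026675.12, chromosome 1, 169949535 to 169969241, minus strand) reduces the keto group left when methyl groups are removed at carbon 4 of the sterol ring. Hsd17b7 was at 38.8, 37.3, 37.3 and 37.2 CPM in wild type, 32.3, 27.9, 34.4 and 33.0 in Btbd7 KO, 26.7, 32.1, 27.5 and 23.9 in clone 1, 22.9, 23.9, 22.1 and 17.8 in clone 2 and 19.1, 23.7, 22.2 and 23.2 in clone 3. The wild-type libraries lay within 37.2 to 38.8, the Zcchc8 KO libraries at or below 32.1 and the Btbd7 KO libraries at 27.9 to 34.4, overlapping the clones, with Btbd7 KO replicate 2 below clone 1 replicate 2. Hsd17b7 fell by 0.68 in the clones, to 0.626 of the wild-type level (SE 0.084, edgeR adjusted p = 6.48e-07). The Btbd7 KO value, -0.24, was not called (edgeR adjusted p = 0.122) although its libraries did not overlap with wild type, and the clones were lower than Btbd7 KO by -0.43 (edgeR adjusted p = 0.000222).

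Sc5d (ENSMUSG00000032018.14, chromosome 9, 42251595 to 42264256, minus strand) puts in a double bond near the end of the pathway. Sc5d was at 207, 151, 162 and 155 CPM in wild type, 125, 135, 139 and 141 in Btbd7 KO, 143, 142, 141 and 146 in clone 1, 151, 138, 125 and 125 in clone 2 and 138, 138, 121 and 149 in clone 3. Wild-type replicate 1 stood alone at 207 and the other wild-type libraries, at 151 to 162, were close to the highest knockout libraries. Clone 2 replicate 1, at 151, overlapped with the lowest of them. Sc5d was lower in the clones (-0.29, SE 0.068, edgeR adjusted p = 0.00143) and in Btbd7 KO (-0.32, edgeR adjusted p = 0.00892). Without wild-type replicate 1 these values were -0.16 (edgeR adjusted p = 0.0226) and -0.20 (edgeR adjusted p = 0.0287). The clones and Btbd7 KO did not differ by the test (0.032, 95% interval -0.10 to 0.17).

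Msmo1 (ENSMUSG00000031604.10, chromosome 8, 64718139 to 64733792, minus strand) and Cyp51 (ENSMUSG00000001467.5, chromosome 5, 4081145 to 4104746, minus strand) encode oxidases that strip methyl groups from the ring. Msmo1 was at 165, 163, 170 and 146 CPM in wild type, 162, 160, 176 and 180 in Btbd7 KO, 173, 177, 139 and 152 in clone 1, 105, 118, 106 and 111 in clone 2 and 146, 143, 155 and 157 in clone 3. Cyp51 was at 89.9, 90.0, 81.1 and 80.8 CPM in wild type, 80.7, 77.3, 87.7 and 84.6 in Btbd7 KO, 80.6, 96.3, 87.7 and 88.0 in clone 1, 51.5, 69.5, 68.8 and 70.6 in clone 2 and 79.3, 89.8, 87.4 and 91.4 in clone 3. For both genes all clone 2 libraries were below all others, while clones 1 and 3 overlapped wild type. In clone 2 Msmo1 fell by 0.55 (SE 0.072, edgeR adjusted p = 1.9e-06) and Cyp51 by 0.38 (SE 0.084, edgeR adjusted p = 0.0009). Neither was called in clone 1 or clone 3, and the joint test of the 3 clones passed for Msmo1 (edgeR adjusted p = 4.18e-06) and for Cyp51 (edgeR adjusted p = 0.00035). The Msmo1 fall in the mean of the clones, -0.22, averages clone 2 with -0.0054 in clone 1 and -0.10 in clone 3, and its call was lost with library totals (-0.14, edgeR adjusted p = 0.0625). Clone 2 replicate 1 had the lowest Cyp51 level, 51.5 CPM.

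The other genes of the late pathway gave a mixed picture. Nsdhl, the decarboxylase that works with Msmo1 and Hsd17b7, fell in the mean (-0.25, edgeR adjusted p = 0.00207), with 44.4 to 56.9 CPM in the clones and 58.5 to 65.5 in wild type. Dhcr7, the reductase of the last step to cholesterol, fell in clone 1 (-0.51) and clone 2 (-0.46) and was at -0.065 in clone 3, and the clones differed (edgeR adjusted p = 0.00719, or 0.08 without clone 3 replicate 1). Ebp, a sterol isomerase, was higher in clone 1 (0.47, edgeR adjusted p = 0.000513), at 47.9 to 58.2 CPM against 31.9 to 41.9 in wild type, and was not called in clone 2 or 3. Its start lies 336 bases from the end of Porcn on the same strand. Porcn averaged 13.96 CPM in clone 1 and 8.38 in wild type, so reads that run on from Porcn cannot be told apart from Ebp reads here. Lss, which cyclises the squalene epoxide, was not called against wild type in any line but differed between clones 3 and 2 (0.26, edgeR adjusted p = 0.0346), a call lost in 9 of 27 other fits. Tm7sf2, a ring reductase, was called in Btbd7 KO (-0.82, edgeR adjusted p = 0.0286), at 1.37 to 6.45 CPM over wild type and Btbd7 KO, and it overlaps Vps51 on the same strand. That call was lost in 6 of 28 other fits, among them those without Btbd7 KO replicate 1, 2 or 3 or wild-type replicate 4 (edgeR adjusted p up to 0.103). Fdft1, squalene synthase, was called nowhere, and its end overlaps Ctsb on the other strand.

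Among the regulators, the SREBP-2 gene was slightly lower and Insig1, at a few counts, was higher. Srebf2 (ENSMUSG00000022463.8, chromosome 15, 82147181 to 82205379, plus strand) had the highest level per length of the sterol branch. Srebf2 was at 273, 343, 347 and 302 CPM in wild type, 301, 317, 311 and 307 in Btbd7 KO, 282, 306, 272 and 290 in clone 1, 307, 271, 297 and 299 in clone 2 and 267, 256, 265 and 268 in clone 3. The clone 3 libraries, at 256 to 268, were below all wild-type libraries, and clones 1 and 2 overlapped wild type. Srebf2 was at -0.17 in the mean (SE 0.051, edgeR adjusted p = 0.0115) and -0.26 in clone 3 (edgeR adjusted p = 0.00288). The mean's call was lost without wild-type replicate 2 (-0.13, edgeR adjusted p = 0.0699) or 3 (-0.11, 0.11), and with library totals (-0.090, 0.19).

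Insig1 (ENSMUSG00000045294.11, chromosome 5, 28071363 to 28078662, plus strand) was close to absent. Insig1 was at 0, 0.174, 0.150 and 0 CPM in wild type, 0, 0.199, 0 and 0.0845 in Btbd7 KO, 1.04, 0.948, 1.01 and 1.53 in clone 1, 1.23, 1.43, 0.456 and 0 in clone 2 and 0.997, 1.13, 0.382 and 1.09 in clone 3. Wild type had 5 counts over its 4 libraries and Btbd7 KO had 4, while the Zcchc8 KO libraries had 113, with clone 2 replicate 4 at 0. From the scaled counts, Insig1 was 11.2-fold higher in the clones than in wild type (95% counting interval 4.65 to 35.1) and 11.4-fold higher than in Btbd7 KO (4.33 to 42.6). Insig1 reached the filter's minimum in none of the wild-type and Btbd7 KO libraries and was tested only because of the Zcchc8 KO libraries, so these values are a description and its call is no support. In clone 2 the call was lost without clone 2 replicate 2 (edgeR adjusted p = 0.0789). A lincRNA, Gm26608, starts 258 bases upstream on the other strand, at a mean of 0 CPM in wild type and 0.167 to 0.247 in the clones. Stard4, a carrier of sterols between membranes, was called in no comparison, at 94.2 to 117 CPM over all libraries.

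**Figure D2:**
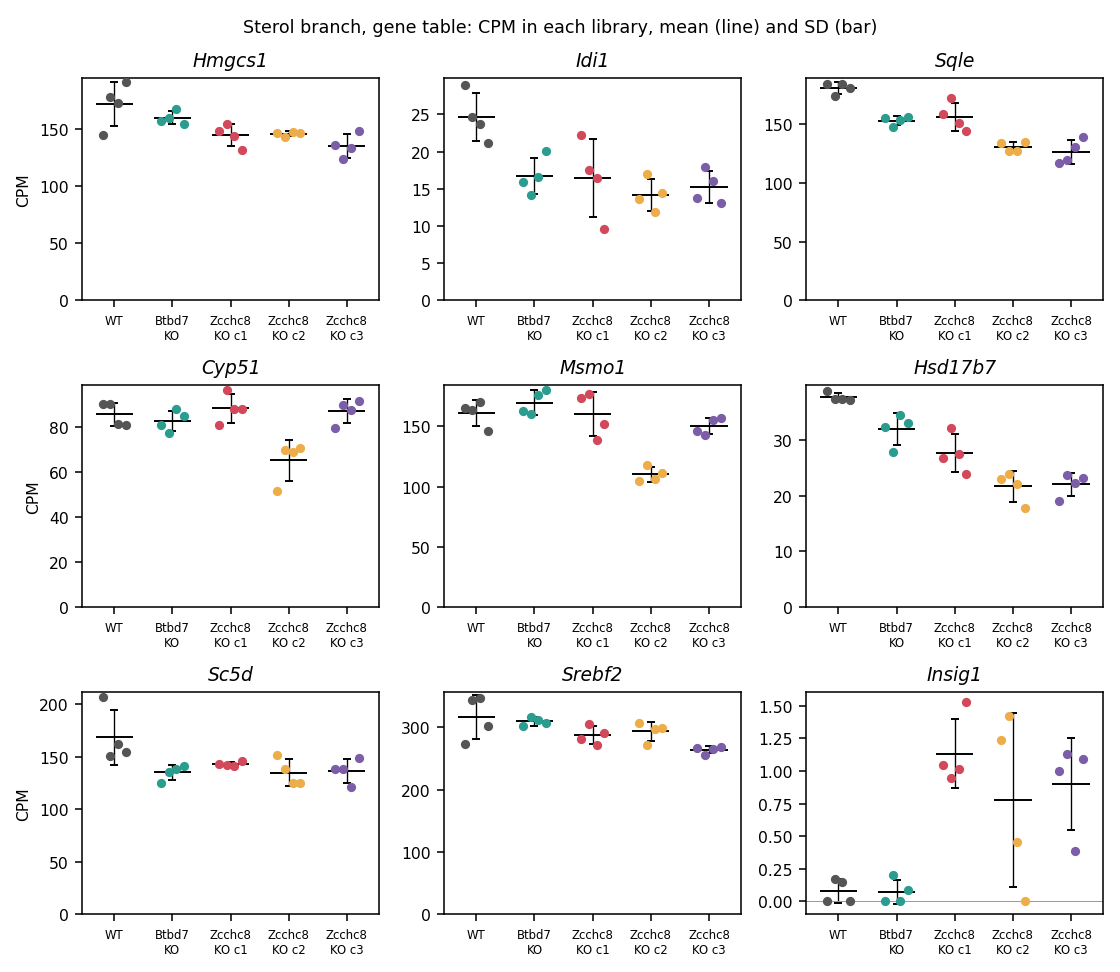
CPM (y axis) of 9 sterol branch genes in each library of the 5 groups (x axis, c1 to c3 are the Zcchc8 KO clones), with the mean as a line and the SD as a bar. Sqle and Hsd17b7 are below wild type in every Zcchc8 KO library, Cyp51 and Msmo1 are low in clone 2, and Insig1 is at 0 to 0.199 CPM in wild type and Btbd7 KO.

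In the fatty acid branch, Elovl6 and Scd2 fell in each Zcchc8 KO clone, while Btbd7 KO had higher levels of 5 of the 8 genes. Elovl6 (ENSMUSG00000041220.10, chromosome 3, 129532355 to 129638495, plus strand) elongates palmitate to stearate. Elovl6 was at 215, 195, 194 and 220 CPM in wild type, 158, 146, 146 and 151 in Btbd7 KO, 128, 142, 143 and 156 in clone 1, 143, 140, 127 and 136 in clone 2 and 160, 168, 166 and 183 in clone 3. No knockout library reached the lowest wild-type library. Elovl6 fell by 0.47 in the clones (SE 0.051, edgeR adjusted p = 9.41e-08) and by 0.45 in Btbd7 KO (SE 0.065, edgeR adjusted p = 1.76e-05). The difference between those effects was -0.018 (95% interval -0.12 to 0.09) and did not pass the test. Clone 3 was less reduced than clone 1 by 0.25 (edgeR adjusted p = 0.00886, or 0.0556 without clone 1 replicate 1) and than clone 2 by 0.32 (edgeR adjusted p = 0.000791).

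Scd2 (ENSMUSG00000025203.6, chromosome 19, 44293674 to 44306864, plus strand), a stearoyl-CoA desaturase, had the highest level per length of all members. Scd2 was at 1954, 2032, 2086 and 1948 CPM in wild type, 2122, 2249, 2231 and 2218 in Btbd7 KO, 1763, 1879, 1736 and 1736 in clone 1, 1758, 1843, 1715 and 1844 in clone 2 and 1708, 1738, 1648 and 1790 in clone 3. Each Zcchc8 KO library was below each wild-type library and each Btbd7 KO library was above them. The changes were small, -0.19 in the clones (SE 0.036, edgeR adjusted p = 0.00021) and 0.14 in Btbd7 KO (SE 0.044, edgeR adjusted p = 0.0343), and the direct comparison gave -0.32 (edgeR adjusted p = 5.71e-08). The Btbd7 KO call was lost in 6 of 28 other fits. Scd1, its relative and neighbour on chromosome 19, rose in Btbd7 KO (0.40, edgeR adjusted p = 0.00749) and in clone 1 (0.30, edgeR adjusted p = 0.0271). The clone 1 call was lost in 4 of 28 other fits, among them those without wild-type replicate 2 or 3 or clone 1 replicate 2 (edgeR adjusted p up to 0.102). Reads shared between Scd1 and Scd2 are uncertain, since how the authors counted them is not given in the sources used here.

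Acly, Acaca and Fasn are the core of the pathway, making cytosolic acetyl-CoA, malonyl-CoA and palmitate. Acly is at ENSMUSG00000020917.17, chromosome 11, 100476353 to 100528000 (minus strand). Acly was at 170, 242, 218 and 208 CPM in wild type, 285, 295, 305 and 292 in Btbd7 KO, 210, 199, 194 and 178 in clone 1, 224, 227, 238 and 231 in clone 2 and 194, 229, 187 and 196 in clone 3. All Btbd7 KO libraries were above all others, and the Zcchc8 KO libraries lay around wild type, whose replicate 1 was low. Acly rose in Btbd7 KO by 0.49 (SE 0.078, edgeR adjusted p = 7.57e-05) and was at -0.0083 in the clones (95% interval -0.13 to 0.12), a value whose sign changed between fits.

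Acaca (ENSMUSG00000020532.18, chromosome 11, 84129672 to 84401651, plus strand) followed a like order in Btbd7 KO. Acaca was at 151, 181, 168 and 144 CPM in wild type, 210, 207, 204 and 222 in Btbd7 KO, 132, 128, 129 and 132 in clone 1, 170, 175, 161 and 159 in clone 2 and 147, 146, 146 and 143 in clone 3. Btbd7 KO was highest, at 204 to 222, and clone 1 was lowest, at 128 to 132, below all wild-type libraries. The Btbd7 KO value was 0.39 (SE 0.061, edgeR adjusted p = 6.02e-05), the clone 1 value -0.30 (edgeR adjusted p = 0.00044) and the mean of the clones -0.13 (edgeR adjusted p = 0.0384). The last call was lost in 23 of 29 other fits. Its neighbour Tada2a, which starts 72 bases away on the other strand, was also higher in Btbd7 KO (0.43, edgeR adjusted p = 0.00182).

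Fasn (ENSMUSG00000025153.9, chromosome 11, 120805846 to 120824547, minus strand) differed between the clones. Fasn was at 750, 880, 914 and 800 CPM in wild type, 975, 1029, 1005 and 997 in Btbd7 KO, 880, 972, 896 and 964 in clone 1, 760, 720, 752 and 692 in clone 2 and 701, 695, 681 and 738 in clone 3. Btbd7 KO was above all wild-type libraries, clone 1 overlapped both, and clones 2 and 3 lay at or below 760. Fasn was higher in Btbd7 KO (0.26, edgeR adjusted p = 0.00178) and in clone 1 (0.15, edgeR adjusted p = 0.0386), and lower in clone 2 (-0.19, edgeR adjusted p = 0.00918) and clone 3 (-0.25, edgeR adjusted p = 0.00147). The clone 1 call was lost in 5 of 28 other fits, among them those without wild-type replicate 4 or clone 1 replicate 2 or 4 (edgeR adjusted p up to 0.0772), and the clone 2 call without wild-type replicate 3 (edgeR adjusted p = 0.0537). Its mean over the clones, -0.10, was not called, and the clones differed (edgeR adjusted p = 4.71e-06). Srebf1, the SREBP-1 gene, ranged from 77.1 to 138 CPM in wild type, the lowest being replicate 1, and was called nowhere. Lpin1, a phosphatidate phosphatase, was not called either, at 22.7 to 35.4 CPM over all libraries.

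**Figure D3:**
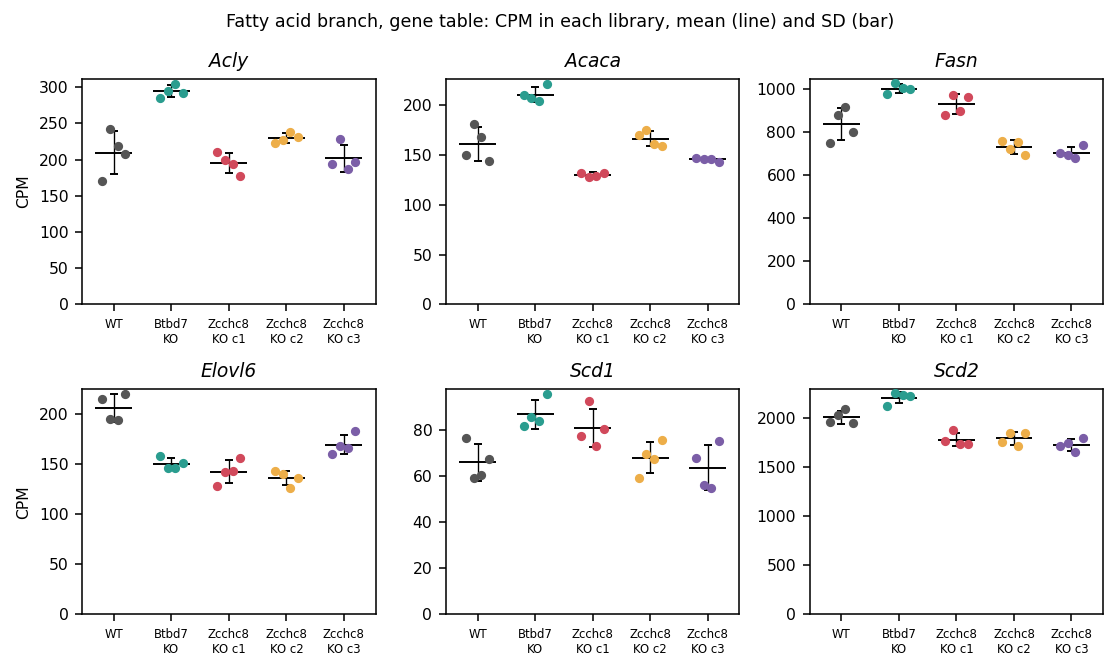
CPM (y axis) of 6 fatty acid branch genes in each library of the 5 groups (x axis, c1 to c3 are the Zcchc8 KO clones), with the mean as a line and the SD as a bar. Acly, Acaca, Fasn, Scd1 and Scd2 are highest in Btbd7 KO by mean, and Elovl6 is highest in wild type.

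Counted by line, 15 members were called in clone 1 (35.8% of all genes), 14 in clone 2 (32.3%) and 13 in clone 3 (29.3%). Lower sterol genes numbered 8, 10 and 9, where 19.1%, 16.2% and 15.3% of all genes were called lower, and Hmgcs1, Sqle, Idi1, Sc5d and Hsd17b7 were among them in each clone. The fatty acid genes lower in each clone were Scd2 and Elovl6, which makes 7 members lower in each of the 3 clones, where 5.82% of all genes were. The Sc5d call in clone 1 was lost in 10 of 28 other fits. Clone 1 was the shallowest group, and without its replicate 4 its count was 8, with 2 sterol genes lower. When the fit held only the clone and wild type, the counts were 6, 8 and 7.

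When the 3 clones were compared with each other in 1 joint test, 11 members differed (28.5% of all genes). They were Sqle, Lss, Cyp51, Dhcr7, Msmo1, Hsd17b7 and Ebp of the sterol branch and Fasn, Acaca, Scd1 and Elovl6 of the fatty acid branch. The joint calls of Lss and Scd1 were lost in 15 and 4 of 28 other fits. Clone 2 was below clone 1 in Msmo1 by -0.54 (edgeR adjusted p = 3.49e-06) and in Cyp51 by -0.43 (edgeR adjusted p = 0.000487), where 21.5% of all genes were called between these clones. Clone 3 was below clone 1 in Sqle by -0.31 (edgeR adjusted p = 0.00103) and in Fasn by -0.40 (edgeR adjusted p = 1.36e-05), where 14.2% of all genes were called. Between clones 3 and 2 the share was 17.8%.

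In Btbd7 KO, the negative control, 11 members differed from wild type (15.7% of all genes and 19.2% of protein-coding genes). Fasn, Acaca, Acly, Scd1, Scd2 and Mvd rose, which is 6 members where 7.73% of all genes and 9.63% of protein-coding genes were called higher. Sqle, Idi1, Sc5d, Tm7sf2 and Elovl6 fell, where 8% of all genes and 9.62% of protein-coding genes were called lower. The median log2 fold change was 0.27 over the fatty acid branch and -0.052 over the sterol branch, against 0.019 over all genes. For 10 of the 11 called genes, all but Tm7sf2, the Btbd7 KO and wild-type libraries did not overlap, but called genes are chosen for such a difference. Over all 29 members, called or not, 5 fatty acid and 1 sterol genes were higher without overlap. Without overlap, 4 sterol genes and 1 fatty acid gene were lower, among them Hsd17b7, which was not called. Over all genes, called or not, non-overlap was seen for 9.37% upward and 7.97% downward. The count was 7 without Btbd7 KO replicate 2, without its replicate 3, or in a fit of these groups alone.

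Set directly against Btbd7 KO, the mean of the clones differed at 17 members (41.1% of all genes and 43.6% of protein-coding genes). Of these, 10 sterol genes and 5 fatty acid genes were lower, and Insig1 and Tm7sf2 were higher. The sterol genes were Hmgcs1, Sqle, Dhcr7, Msmo1, Nsdhl, Mvd, Mvk, Acat2, Srebf2 and Hsd17b7, and the fatty acid genes were Fasn, Acaca, Acly, Scd1 and Scd2. This contrast shares its clone libraries with the comparison against wild type. Of the 15 members lower against wild type, 9 sterol genes and 2 fatty acid genes, Acaca and Scd2, were also lower against Btbd7 KO. The like share over all genes was not computed, so these counts are a description. The widest gaps in the fatty acid branch were Acaca at -0.52 (SE 0.049, edgeR adjusted p = 3.92e-09) and Acly at -0.50 (SE 0.062, edgeR adjusted p = 4.74e-07). For Hmgcs1, Mvd, Fasn, Acaca, Acly and Scd2 every Zcchc8 KO library was below every Btbd7 KO library, where 10.2% of all genes were. The calls of Nsdhl and Srebf2 against Btbd7 KO were lost in 15 and 17 of 28 other fits. Over all genes 22.2% were called lower and 18.8% higher, and over protein-coding genes 28.7% lower and 14.9% higher. Idi1, Sc5d and Elovl6 were lower than wild type in both kinds of knockout, and their clones did not pass the test against Btbd7 KO.

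Summed over the branch, sterol genes gave 1528 to 1601 CPM in wild type, 1440 to 1520 in Btbd7 KO, 1375 to 1514 in clone 1, 1289 to 1298 in clone 2 and 1296 to 1379 in clone 3. In these TMM-adjusted values no knockout library reached the lowest wild-type sum. The gap to clone 1 and Btbd7 KO is narrow and rests on the TMM factors (0.956 in wild-type replicate 1 and 1.01 in clone 1 replicate 2). Without these factors clone 1 and Btbd7 KO libraries overlap wild type. The fatty acid sum was 3423 to 3798 CPM in wild type, 4010 to 4187 in Btbd7 KO, 3307 to 3551 in clone 1, 3217 to 3314 in clone 2 and 3036 to 3287 in clone 3. Without Scd2, the fatty acid sum was 1469 to 1718 CPM in wild type and 1888 to 1937 in Btbd7 KO, so the higher sum in Btbd7 KO did not come from Scd2 alone.

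Per kilobase of annotated exon, the wild-type order began with Scd2 at 367 CPM per kb and Fasn at 76.4. Srebf2 (44.0), Acly (39.7), Hmgcs1 (37.5), Sc5d (34.7), Sqle (32.6) and Elovl6 (32.04) followed in CPM per kb, and the SDs of neighbours in this stretch overlapped. Tm7sf2 was near the bottom at 1.24 CPM per kb and Insig1 last at 0.026.

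Upstream of the members, PROMPT counts rose in the Zcchc8 KO clones at 16 regions and fell at none. Of the 29 regions, 24 had enough counts to test, and those of Fdps, Lss, Pmvk, Elovl6 and Lpin1 did not. The sterol regions that rose were those of Hmgcs1, Sqle, Idi1, Cyp51, Insig1, Msmo1, Sc5d, Mvd, Stard4, Srebf2, Hsd17b7 and Ebp, and the fatty acid regions were those of Fasn, Acly, Scd1 and Scd2. Of the 16, the regions of Acly, Cyp51, Hmgcs1, Idi1, Insig1, Scd1, Sqle and Stard4 passed the filter only through the Zcchc8 KO libraries, as did 1 region that was not called, that of Fdft1, so the count is set in part by the filter and is given as a description. The other 15 tested regions could have passed without these libraries, and 8 of them rose. The share over all regions that could pass in this way was not computed, so this count is a description too. Over all 17655 tested regions, chosen by the same filter, 39.9% were called higher and 3.31% lower (43.2% either way). For 10 of the regions, those of Hmgcs1, Idi1, Cyp51, Sc5d, Mvd, Srebf2, Hsd17b7, Fasn, Acly and Scd2, every Zcchc8 KO library was above every wild-type library, where 25.5% of all regions were. Against Btbd7 KO, 17 of the regions were higher (45.6% of all). The median log2 fold change was 1.67 over the 24 regions and 0.45 over all regions, both set in part by the same filter. In each of the 3 clones 8 sterol and 3 fatty acid regions were higher, where 28.9% of all regions were (39.3%, 36% and 36.7% in clones 1, 2 and 3 taken singly). With TMM factors taken from the PROMPT table itself, the median of all regions moved to 0.015 and 12 of the members' regions were higher and 1 lower.

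The Idi1 region was at 0.231, 0.148 and 0.699 CPM in wild type, 0.359, 0.400, 0.123 and 0.423 in Btbd7 KO, 6.82, 5.30, 2.92 and 4.52 in clone 1, 5.96, 6.26, 4.58 and 4.81 in clone 2 and 4.26, 4.14, 5.49 and 4.75 in clone 3. The 12 Zcchc8 KO libraries were all at or above 2.92 and the wild-type and Btbd7 KO libraries at or below 0.699. The Idi1 region rose 13.0-fold, or 3.70 on the log2 scale (SE 0.37, edgeR adjusted p = 3.94e-13), while the Idi1 gene fell. The region passed the filter only through the Zcchc8 KO libraries, with 18 wild-type counts in all. Its values are therefore a description and its call is no support. A transcript of the unconfirmed class TEC, Gm48574, is annotated across the Idi1 start on the opposite strand. Gm48574 averaged 0.146 CPM in wild type, 0.327 in Btbd7 KO and 4.26 to 4.42 in the clones, close in level to the Idi1 region. At such low wild-type and Btbd7 KO levels it was tested only through the Zcchc8 KO libraries, so these values are a description too. Whether Gm48574 and the Idi1 region hold the same reads was not tested.

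The Cyp51 region was at 0.115, 0.148 and 0.175 CPM in wild type, 0.0599, 0.267, 0.123 and 0 in Btbd7 KO, 3.28, 1.496, 4.09 and 1.81 in clone 1, 2.63, 2.37, 0.869 and 2.65 in clone 2 and 1.64, 2.38, 1.66 and 0.882 in clone 3. Wild type and Btbd7 KO did not exceed 0.267 and no Zcchc8 KO library was under 0.869. The Cyp51 region rose 13.3-fold (log2 3.74, SE 0.60, edgeR adjusted p = 3.62e-07), in clones 1, 2 and 3 alike, by 4.09, 3.75 and 3.37. This region passed the filter only through the Zcchc8 KO libraries, with 7 wild-type counts in all. These values are therefore a description and the call is no support. The Cyp51 gene itself had changed in clone 2 only among the clones by the test.

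The Hmgcs1 region was at 0.577, 0.591 and 0 CPM in wild type, 0.359, 0, 0.863 and 0 in Btbd7 KO, 2.75, 1.496, 2.04 and 1.03 in clone 1, 1.52, 2.37, 1.80 and 1.60 in clone 2 and 1.14, 1.504, 0.894 and 2.24 in clone 3. The wild-type libraries, at most 0.591, were below the lowest Zcchc8 KO library. The Hmgcs1 region was higher by 2.13 (SE 0.59, edgeR adjusted p = 0.00205), and the printed promoter with the TCACNCCAC match is the DNA directly before its start. The Hmgcs1 region too passed the filter only through the Zcchc8 KO libraries, so its call is no support.

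The Sc5d region was at 1.21, 1.26 and 1.63 CPM in wild type, 1.08, 0.467, 0.863 and 1.19 in Btbd7 KO, 8.79, 7.21, 5.403 and 7.61 in clone 1, 8.73, 6.04, 6.66 and 5.92 in clone 2 and 6.33, 5.02, 5.36 and 7.33 in clone 3. The Hsd17b7 region was at 2.77, 2.44 and 1.92 CPM in wild type, 1.80, 1.20, 2.10 and 2.88 in Btbd7 KO, 8.53, 8.30, 8.91 and 6.32 in clone 1, 3.60, 5.68, 5.16 and 5.85 in clone 2 and 4.76, 5.64, 4.98 and 6.52 in clone 3. In both regions each Zcchc8 KO library was above each wild-type and Btbd7 KO library. The log2 fold changes were 2.28 for Sc5d (SE 0.26, edgeR adjusted p = 2.06e-11) and 1.36 for Hsd17b7 (SE 0.23, edgeR adjusted p = 1.62e-06). An annotated antisense RNA, 3110045C21Rik, starts 168 bases upstream of Hsd17b7 and was higher as well (1.38, edgeR adjusted p = 0.00114).

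The Sqle region was at 0.519, 0.443 and 0.291 CPM in wild type, 0.240, 0.200, 0 and 0.508 in Btbd7 KO, 1.97, 2.45, 1.75 and 3.10 in clone 1, 2.08, 1.80, 2.38 and 1.46 in clone 2 and 1.99, 0.376, 2.04 and 1.63 in clone 3. The Srebf2 region was at 0.923, 0.369 and 1.69 CPM in wild type, 0.779, 1.000, 1.73 and 0.762 in Btbd7 KO, 5.77, 9.93, 4.38 and 6.84 in clone 1, 4.29, 4.10, 4.11 and 4.04 in clone 2 and 5.47, 4.89, 3.70 and 4.75 in clone 3. Sqle overlapped wild type through clone 3 replicate 2 at 0.376, and Srebf2 did not overlap. The values were 2.16 for Sqle (edgeR adjusted p = 0.000215) and 2.31 for Srebf2 (edgeR adjusted p = 4.34e-09). The Mvd region, at 6.29 to 6.69 CPM in wild type, was at 7.63 to 10.9 in the clones, a smaller rise of 0.54 (edgeR adjusted p = 0.0038). Msmo1 rose by 1.19 (edgeR adjusted p = 0.0186, or 0.0792 without wild-type replicate 2) with overlap. The Stard4 region had 0 counts in the 3 wild-type libraries and 69 in the 12 Zcchc8 KO libraries, at least 8.59-fold higher when wild type is set at a floor of 3 counts over the group. With Stard4 at this bound the median over the 24 regions was 1.67. The Sqle and Stard4 regions passed the filter only through the Zcchc8 KO libraries, so their calls are no support.

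The Insig1 region had 8 counts in wild type and 124 in the clones, a ratio of 5.79 (95% counting interval 2.85 to 13.7). This region passed the filter only through the Zcchc8 KO libraries, so these values are a description. It was highest in clone 3, at 1.38 to 2.06 CPM, against 0.117 to 0.222 in wild type. The Ebp region rose by 0.48 (edgeR adjusted p = 0.0492), a call lost in 12 of 23 other fits, through clone 1 (0.97, edgeR adjusted p = 0.000549), and it was the 1 member region that differed between the clones (edgeR adjusted p = 0.00853, or 0.0618 without clone 1 replicate 4, where 10.9% of all regions did). Porcn ends just upstream on the same strand, so reads of its end may be counted in the Ebp region.

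In the fatty acid branch 4 of 6 tested regions rose. The Acly region was at 0.115, 0.0739 and 0.350 CPM in wild type, 0.359, 0, 0.493 and 0.254 in Btbd7 KO, 6.43, 3.13, 2.04 and 2.58 in clone 1, 2.91, 1.94, 2.61 and 2.72 in clone 2 and 3.27, 2.88, 2.81 and 3.05 in clone 3. The Fasn region was at 0.115, 0.813 and 0.932 CPM in wild type, 0.479, 0.667, 1.48 and 1.10 in Btbd7 KO, 9.97, 8.84, 8.47 and 7.61 in clone 1, 3.32, 6.40, 5.85 and 7.45 in clone 2 and 4.12, 5.27, 5.88 and 4.96 in clone 3. For both, the Zcchc8 KO libraries were well apart from the 7 wild-type and Btbd7 KO libraries. The Acly region rose 15.4-fold (log2 3.94, SE 0.51, edgeR adjusted p = 1.89e-09) and the Fasn region 10.3-fold (log2 3.36, SE 0.33, edgeR adjusted p = 3.05e-13), both with genes that were not called in the mean. The Scd2 region was at 2.37, 1.63 and 1.98 CPM in wild type, 2.16, 2.07, 2.34 and 1.27 in Btbd7 KO, 9.84, 11.0, 6.86 and 9.42 in clone 1, 7.06, 7.48, 7.71 and 7.59 in clone 2 and 5.90, 6.39, 7.79 and 8.82 in clone 3. The Scd2 region was higher by 1.98 (SE 0.22, edgeR adjusted p = 1.27e-11) without overlap. The Scd1 region was higher by 2.74 (SE 0.90, edgeR adjusted p = 0.0103, or 0.0746 without wild-type replicate 2) on 0 to 2.18 CPM. The Acly region, with 9 wild-type counts in all, and the Scd1 region passed the filter only through the Zcchc8 KO libraries. Their values are a description and their calls are no support.

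**Figure D4:**
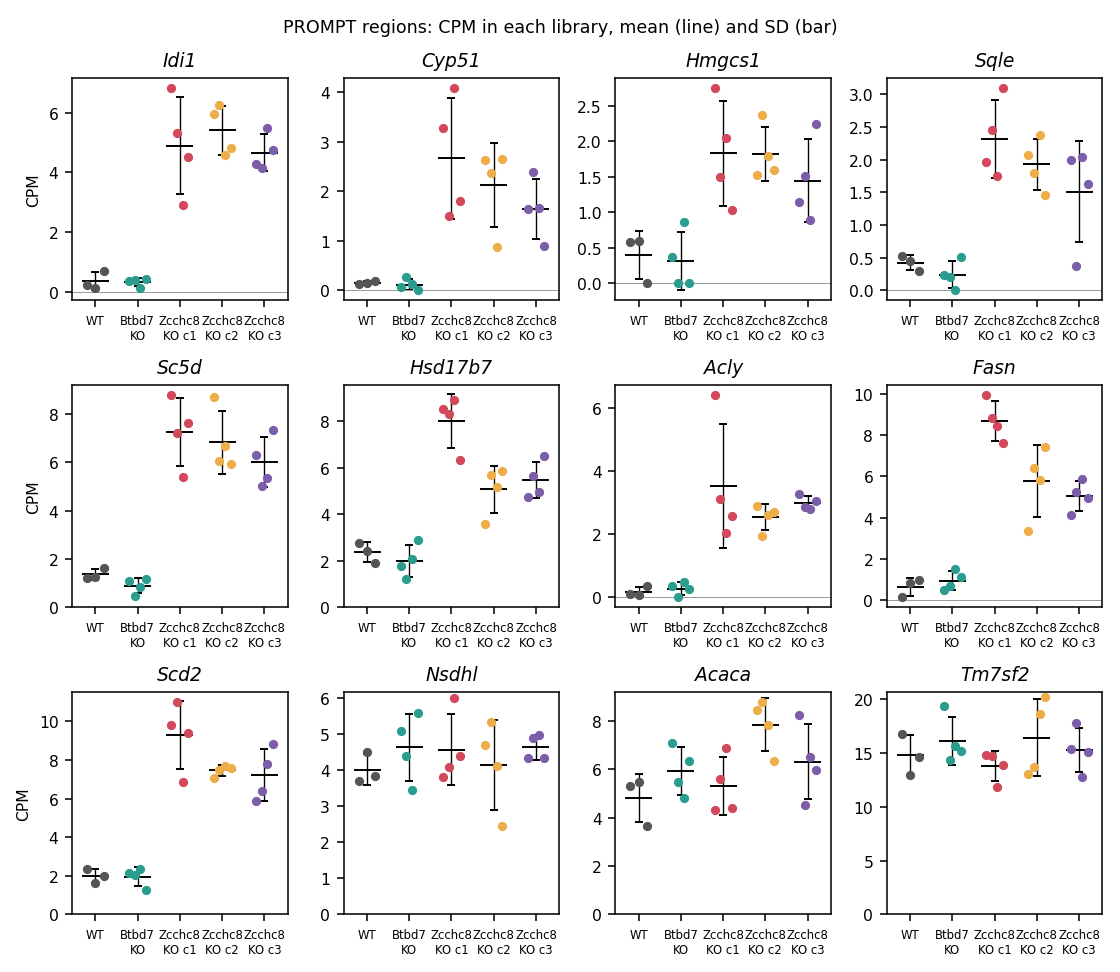
CPM (y axis) in the PROMPT regions of 12 members in each library of the 5 groups (x axis, c1 to c3 are the Zcchc8 KO clones, wild type has 3 libraries), with the mean as a line and the SD as a bar. The first 9 panels are regions called higher in the clones, and Nsdhl, Acaca and Tm7sf2 are regions that were not called. The regions of Idi1, Cyp51, Hmgcs1, Sqle and Acly passed the filter only through the Zcchc8 KO libraries.

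No member region was called in Btbd7 KO by edgeR, where 3.04% of all regions were called, and DESeq2 called none. At an unadjusted p under 0.05 there was 1, Msmo1, at -1.57 (edgeR adjusted p = 0.138). The 8 tested regions that were not called in the mean were those of Tm7sf2, Nsdhl, Mvk, Acat2, Dhcr7, Fdft1, Acaca and Srebf1. Tm7sf2 was at 0.032 (95% interval -0.22 to 0.28) and 11.8 to 20.3 CPM over all libraries, and its start lies inside Vps51. Nsdhl was at 0.14 (95% interval -0.28 to 0.57) with Cetn2 starting 146 bases away, and Mvk at 0.16 (95% interval -0.54 to 0.86) with Mmab starting 209 bases away on the other strand. Acaca was at 0.42 and was called in clone 2 (0.70, edgeR adjusted p = 0.00776, or 0.0746 without wild-type replicate 4).

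The regions were also divided by the annotation around the member. Of the 8 tested members with no other gene within 5 kb upstream, 8 were higher, and of the 16 with another gene there, 8 were. Fdps, Lss and Lpin1, with no such gene, were too low to test, and Hmgcs1, Stard4, Cyp51, Acly and Scd1 passed the filter only through the clones. So did Idi1, Sqle, Insig1 and Fdft1, which have such a gene. Both counts are therefore set in part by the filter and are no support. Over all tested regions, chosen by the same filter, 69.9% were called higher with no such gene and 30.3% with one. How far a PROMPT region reaches and which strand was counted are not given in the sources used here, so reads of an upstream gene can be part of a region's count.

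**Figure D5:**
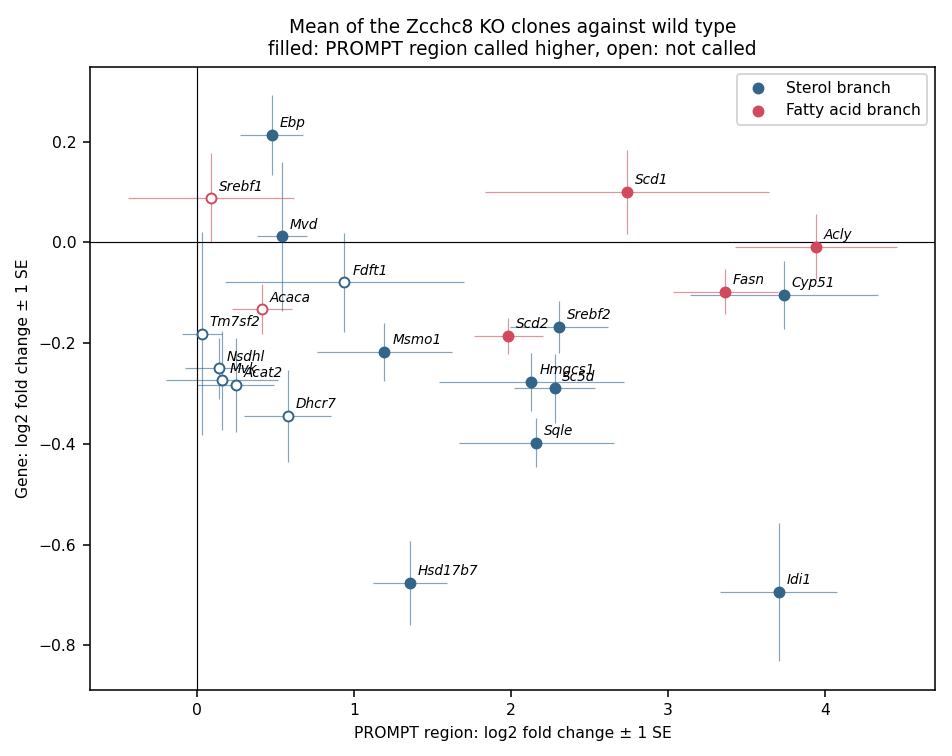
Log2 fold change of the gene (y axis) against that of its PROMPT region (x axis), both for the mean of the Zcchc8 KO clones against wild type with bars of 1 SE, for 22 members. Insig1 and Stard4 are left out because wild type had few or no counts. Filled points are regions called higher, and 8 of the members with a higher region, Idi1, Hsd17b7, Sqle, Sc5d, Hmgcs1, Msmo1, Scd2 and Srebf2, had a gene that was called lower. The regions of Idi1, Sqle, Hmgcs1, Cyp51, Acly, Scd1 and Fdft1 passed the filter only through the Zcchc8 KO libraries.

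Among these members, a higher PROMPT region went with no single direction of the gene. Of the 16 members with a higher region, 8 genes were lower (Hmgcs1, Sqle, Idi1, Msmo1, Sc5d, Srebf2, Hsd17b7 and Scd2), 2 were higher (Insig1 and Ebp) and 6 were not called (Cyp51, Mvd, Stard4, Fasn, Acly and Scd1). Among the 8 members whose region was tested and not called, Nsdhl, Mvk, Acat2, Dhcr7 and Acaca had a lower gene as well. Of the 16 higher regions, those of Acly, Cyp51, Hmgcs1, Idi1, Insig1, Scd1, Sqle and Stard4 passed the filter only through the Zcchc8 KO libraries. So did the Insig1 gene. The like share over all genes with a higher region was not computed, so these counts are a description.

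Genes of the same pathways outside the 29 were read from 5 further lists, also chosen with results of these data known. Of 16 genes for SREBP processing and sterol sensing, 8 fell in the mean of the clones and none rose, with a median of -0.14. Rnf145, a ubiquitin ligase of the sterol response, was lower in each clone (-0.25 in the mean, edgeR adjusted p = 0.00129). Of 10 further sterol and isoprenoid genes, 4 fell and 1 rose, with a median of -0.14. In Btbd7 KO these lists had 1 higher and 2 lower, and 2 higher and none lower.

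Of 22 tested genes of further fatty acid and glycerolipid synthesis, 8 fell and 1 rose (median -0.074). Acsl1, which activates long-chain fatty acids to their CoA esters, fell the most, from 81.2 to 86.0 CPM in wild type to 38.5 to 60.6 in the clones, with 80.9 to 89.0 in Btbd7 KO. On the log2 scale this was -0.76 in the clones (edgeR adjusted p = 1.24e-10) and 0.016 in Btbd7 KO. Me1, malic enzyme and a source of NADPH, was at -0.41 (edgeR adjusted p = 0.000137) and Elovl1, another elongase, at -0.38 (edgeR adjusted p = 0.0016). Fads1, a desaturase, rose in the clones (0.34, edgeR adjusted p = 7.96e-06) and in Btbd7 KO (0.43, edgeR adjusted p = 1.75e-05).

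Of 14 tested genes of sterol uptake, storage and efflux, 4 fell and 4 rose (median 0.014). Nceh1, which frees cholesterol from its esters, fell by 0.85 (edgeR adjusted p = 9.42e-10), with 53.8 to 63.3 CPM in wild type, 49.6 to 61.0 in Btbd7 KO and 24.0 to 41.9 in the clones. Stard3, a cholesterol carrier, rose by 0.71 in the clones (edgeR adjusted p = 0.000417) and 0.72 in Btbd7 KO (edgeR adjusted p = 0.00456). Gramd1a, another, rose by 0.46 and 0.59 (edgeR adjusted p = 0.000844 and 0.00124), and Nr1h2, the gene of the sterol receptor LXR beta, by 0.34 and 0.29 (edgeR adjusted p = 0.00148 and 0.0419). Of 12 genes of fatty acid oxidation, 6 fell and 1 rose in the clones, and 4 fell in Btbd7 KO. The shares of these lists stand beside 19.9% lower and 16.2% higher among all genes and, in Btbd7 KO, 8% and 7.73%. Among protein-coding genes the shares were 25.4% lower and 11.8% higher and, in Btbd7 KO, 9.62% and 9.63%.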

How the data were processed

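Total RNA was purified with Trizol and spin columns, and libraries were made with the Illumina TruSeq Stranded Total RNA kit, per the labels' protocols. The authors deposited raw read counts per gene for 20 libraries and read counts per PROMPT region for 19, without wild-type replicate 1. The submitters' processing notes name STAR 2.7.3a and FastQC; the roles of the tools, the genome build, the counter, the strand setting and the extent of a PROMPT region are not given in the sources used here. No column lacked a sample. Symbols came from GENCODE M21 through the gene identifier, and 27 of the 29 members had the same identifier version.

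The test was edgeR's quasi-likelihood F test (edgeR 4.0.16, R 4.3.3) on 1 model of all 5 groups, with TMM factors over all genes, filterByExpr by group and Benjamini-Hochberg adjustment over all genes tested, at a threshold of 0.05. PROMPT regions used the library sizes and TMM factors of the gene table. CPM are counts scaled to the TMM-adjusted library total. The mean of the clones weights the 3 clones equally. Members given library by library were, in each branch, those with the lowest adjusted p in 3 contrasts and the most abundant per length. Members, lists and tests were chosen with earlier results of these data known, and the protein-coding background was added after the results were seen. Alternatives were DESeq2 1.42.0, other filters, scaling, thinning to equal depth, fewer groups, cell lines as replicates, a replicate block and each library left out; the factors computed after the filter were added after seeing the data.

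In simulated counts for the mean of the clones against wild type, 200 features per fit were changed, each 2-fold or 4-fold. The gene fit recovered 79.2% of those changed 2-fold and 96.8% of those changed 4-fold, over 15296 genes, and 6.7% of its calls were false. The PROMPT fit recovered 65.6% and 90.5%, over 17711 regions, and 2.65% of its calls were false. All other features kept 1 mean level over the groups, unlike these data, where 36.1% of genes were called. The members' falls were smaller than 2-fold, so their recovery was not simulated. Counting intervals are 95% exact intervals and cover counting error only, since reads without molecular identifiers are not independent molecules. Promoter sequences are from RefSeq on GRCm38.p6, and figures were drawn with Python 3.11.15 and matplotlib 3.10.9.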

Additional observations from a re-analysis of the deposited data

Results flagged for a closer look

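Of 161 groups of 4 libraries tested for 1 library far from the other 3, 10 stood out, and chance flags about 1 in 20 groups. Among gene levels, Cyp51 was at 51.5 CPM in clone 2 replicate 1 against 68.8 to 70.6 in the other clone 2 libraries, and Hsd17b7 was at 38.8 in wild-type replicate 1 against 37.2 to 37.3. The other 8 were PROMPT regions. Clone 1 replicate 3 was at 1.46 CPM upstream of Fdft1, against 0.129 to 0.272. Clone 2 replicate 3 was at 0.869 upstream of Cyp51, against 2.37 to 2.65, and clone 2 replicate 2 was at 1.80 upstream of Srebf1 (0.695 to 0.836) and at 0 upstream of Stard4 (0.416 to 0.488). Clone 3 replicate 2 was at 0.502 upstream of Msmo1, against 2.42 to 2.51, and clone 3 replicate 1 was at 0.355 upstream of Srebf1, against 0.611 to 0.639. Btbd7 KO replicate 3 was at 0.493 upstream of Stard4, where the other 3 were at 0, and Btbd7 KO replicate 4 was at 0.677 upstream of Scd1, against 0 to 0.0599.

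Effects also differed between lines by a test of the difference itself. By edgeR's quasi-likelihood test, 7 sterol and 4 fatty acid members differed between the 3 Zcchc8 KO clones, where 28.5% of all genes did. The effects of Zcchc8 KO and Btbd7 KO differed at 12 sterol and 5 fatty acid members, where 41.1% of all genes did. The 12 include Insig1, which passed the filter only through the Zcchc8 KO libraries.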

How the results depend on the processing

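Replicate numbers did not pair the libraries: over 40 pairs with the same number the correlation of deviations ran from -0.087 to 0.15, 2 pairs were over 0.1, and 1 of 20 libraries matched its own number best. With a replicate block the counts of members called were 17 (mean against wild type), 15, 13 and 13 (clones 1, 2 and 3), 11 (Btbd7 KO), 17 (mean against Btbd7 KO), 11 (between clones), 15 (PROMPT, mean) and 0 (PROMPT, Btbd7 KO).

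Leaving out 1 library gave 11 to 17 members for the mean, 8 to 17, 12 to 14 and 10 to 14 for clones 1, 2 and 3, 7 to 12 for Btbd7 KO, 13 to 18 for the mean against Btbd7 KO, 8 to 14 between clones, 13 to 17 PROMPT regions for the mean and 0 for Btbd7 KO. Library totals without TMM factors gave 11 for the mean, and cell lines as replicates gave 1. Fits of only the groups compared gave 6, 8 and 7 for the clones and 7 for Btbd7 KO. Asking also for an absolute log2 fold change over 0.5 left 3 for the mean, 5, 5 and 4 for the clones, 3 for Btbd7 KO and 4 for the mean against Btbd7 KO. The cause of these moves was not tested, except that cell lines as replicates leave 5 samples and the fold threshold is stricter by construction.

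Over the 13 members given library by library, 26 values were refitted 741 times: 672 kept direction and side of the threshold, 47 lost the call, 2 gained it and 20 changed sign, none of them called. The sign changes were Acly in the mean against wild type, -0.0083 as reported (0.026 by DESeq2, 0.069 with library totals, 0.015 with TMM after the filter, 0.011 with only the groups compared, -0.078 to 0.068 with 1 library left out), Msmo1 in Btbd7 KO (-0.020 at equal depth) and Srebf2 in Btbd7 KO (0.0097 without wild-type replicate 2 and 0.016 without replicate 3, over a range of -0.088 to 0.016). Fasn gained its call in the mean without wild-type replicate 1 (-0.13, edgeR adjusted p = 0.0151), and so did Hmgcs1 in Btbd7 KO (-0.17, edgeR adjusted p = 0.0405). Many wild-type PROMPT values rest on few counts.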
